A study of Mus musculus with 10 samples.

Results

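The immediate early genes Npas4, Arc, Egr1, Egr2, Egr3, Egr4, Nr4a1, Nr4a2, Nr4a3 and Ier2 were followed in the hippocampus of Dp1Rhr mice and their controls. Each gene had 1 probe set annotated to it alone, so the set held 10 of the 19938 genes measured. The genes were selected with measured values of this same Dp1Rhr against control contrast in view, and the way their values run together over the arrays was part of the choice. Their differences between the groups and their correlations are therefore given as a description, with no test.

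The study compared mouse lines that model parts of Down syndrome. The groups used here were 5 Dp1Rhr mice and 5 control mice, all males aged 16 weeks on a background labelled C57BL/6N, with the whole hippocampus (right and left) of each mouse on its own array. Dp1Rhr carries an additional copy of a stretch of chromosome 16, placed in tandem and running from Cbr1 to Fam3b. The controls, labelled Dp1Rhr_Dp5Yah_WT, were wild-type littermates from a cross of the Dp1Rhr and Dp5Yah lines and carried neither duplication. None of the 10 genes lies on chromosome 16, so none has an extra copy of its own. The duplication is present in every cell from conception, so the arrays do not separate effects in the adult hippocampus from earlier ones. The labels name the mice as biological replicates and give no time between handling and collection of the tissue.

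Immediate early genes are transcribed within minutes of synaptic activity, without new protein synthesis, when calcium entry and kinase signalling act on transcription factors such as CREB, SRF and MEF2 that already sit at their promoters. Most of them encode transcription factors that switch on a later set of genes, while Arc acts at the synapse itself. In the hippocampus their RNA rises in sparse groups of neurons during learning, novelty or handling, and is short-lived.

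All values below are RMA log2 expression values, in which a difference of 1 is a doubling of the array signal. Array medians were between 6.77 and 6.83, and any pair of arrays had an r from 0.996 to 0.998. Dyrk1a, a gene of the duplicated stretch, averaged 11.7 (SD 0.06) over the controls and 12.0 (SD 0.04) over the Dp1Rhr arrays, with no overlap, as the labels state. Prox1, the transcription factor of dentate granule cells, was between 10.1 and 10.5 in every array. Control replicates 2 and 3 stood apart in their markers of neighbouring tissue. Ttr, the thyroid hormone carrier made by choroid plexus, was at 9.53 and 9.83 in these 2 arrays and between 13.2 and 13.6 in the other 8. Because the same 2 arrays were also the highest for most of the 10 genes, each of their differences is given with and without them. In whole tissue, fewer cells expressing a gene and less RNA per cell cannot be told apart.

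The bases just before the transcription start of these genes are shown because the genes varied together over the arrays. RefSeq promoter windows (GRCm38.p6) were at hand for 6 of the 10 genes, Npas4, Egr2, Egr4, Nr4a1, Nr4a2 and Nr4a3, in 10 windows, 5 of them of Egr2. The 250 bases before the start were searched on both strands for TGACG, the core of the cAMP response element (CRE) that CREB binds. A short stretch of each gene is printed 5′ to 3′ on the strand of the gene. Capitals mark the core on either strand, as TGACG or CGTCA, and the longer TGACGTC, which reads GACGTCA on the other strand. The CArG box of SRF is also in capitals in Egr2.
Npas4, chr19:4990129-4990158, minus strand, bases -187 to -158 from the start: ccgttcGACGTCAcgggaTGACGTCggaag
Egr2, chr10:67537793-67537822, plus strand, bases -76 to -47: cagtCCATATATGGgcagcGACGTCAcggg
Egr4, chr6:85513682-85513711, minus strand, bases -122 to -93: gtttggtcatttaCGTCAcggcgccagggc
Nr4a1, chr15:101266610-101266639, plus strand, bases -236 to -207: ctgCGTCAatggaaccccgcgtgCGTCAcg
Nr4a2, chr2:57124104-57124133, minus strand, bases -130 to -101: gccgggcTGACGgggccgcTGACGcgcttg
Nr4a3, chr4:48045084-48045113, plus strand, bases -221 to -192: tcccatgtCGTCAcatTGACGTCtcgcatt

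All 6 genes held the core in at least 1 window, which 17.8% of the 32851 RefSeq windows did. That share is per window, while Egr2 had 5 windows. The shares over all windows were not matched for GC content, which was 54.0% to 80.0% in the windows of these genes. The counts were 4 in Nr4a1, Nr4a2 and Nr4a3, and 2 in Npas4, in Egr4 and in 3 of the 5 windows of Egr2, with 0 in its other 2. These 3 windows of Egr2 overlap and hold the same 2 sites. Of all windows, 0.688% held 3 or more. The longer TGACGTC, which contains the core and was looked for after the sequences had been seen, occurred 2 times in Npas4 and 1 time each in Nr4a3 and those 3 windows of Egr2, against 2.78% of all windows. None of the windows held the full CRE TGACGTCA (1.55% of all windows), the NR4A response element AAAGGTCA (1.34%) or the EGR site GCGTGGGCG (0.536%). The CArG box was in 4 windows of Egr2 and in 1.47% of all windows, and a TATA box (TATAAA) in that of Nr4a2 and in 12.4%. These are matches of letters. Whether any factor bound there in these hippocampi was not measured.

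**Figure D1:**
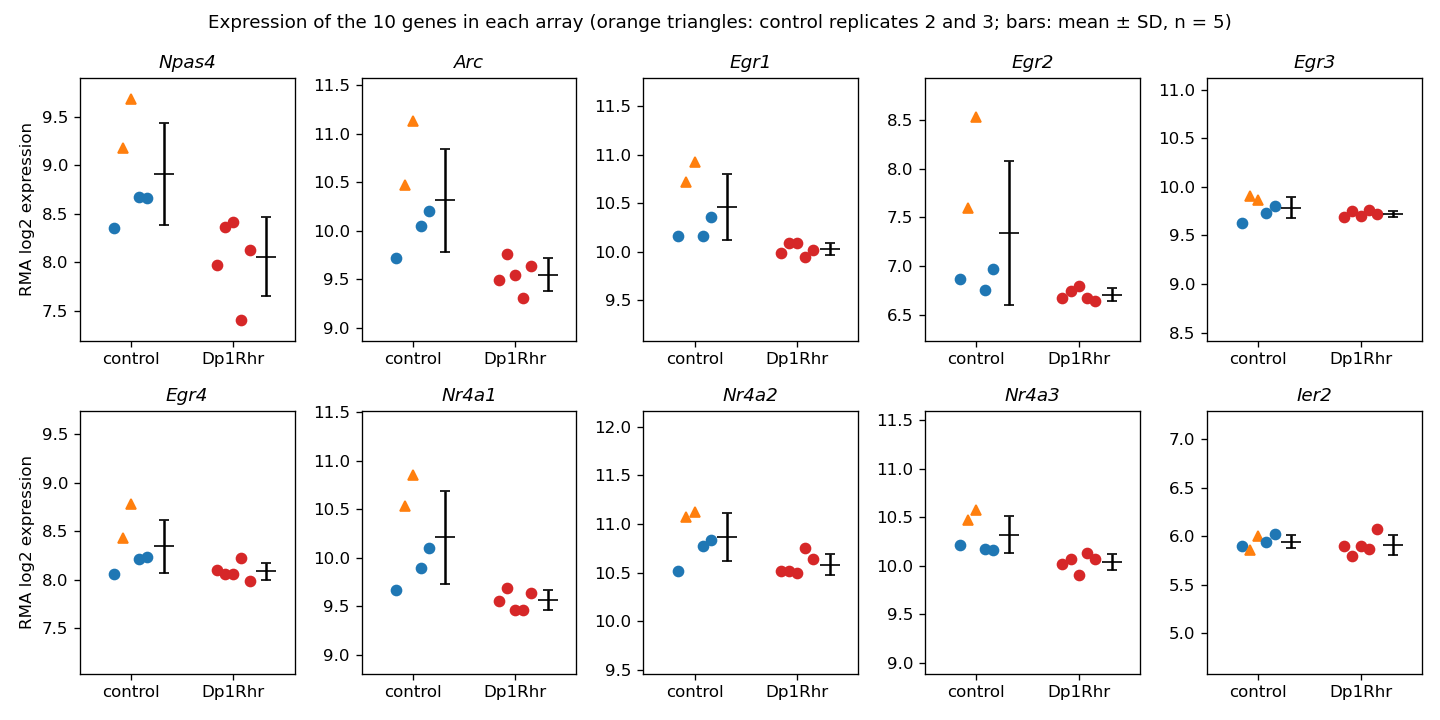
RMA log2 expression (vertical axes, each spanning the same number of log2 units around the gene) of the 10 genes in each of the 5 control and 5 Dp1Rhr arrays, with the mean and SD of each group beside its points. Orange triangles are control replicates 2 and 3, which are the 2 highest arrays in 9 of the 10 panels, Ier2 being the exception.

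Npas4, on chromosome 19 (4984353 to 5003439, GRCm38), encodes a neuron-restricted transcription factor of the bHLH-PAS family that is induced by calcium entry and adjusts inhibitory synapses. In the control arrays 1 to 5 it was at 8.36, 9.18, 9.68, 8.67 and 8.66, and in the Dp1Rhr arrays at 7.97, 8.36, 8.42, 7.40 and 8.13. Control replicates 3 and 2 were the highest and Dp1Rhr replicate 4 was the lowest by far, and the groups overlapped only between the lowest control and the 2 highest Dp1Rhr arrays. The controls averaged 8.91 ± 0.52 (SD, n = 5) and the Dp1Rhr arrays 8.06 ± 0.41 (SD, n = 5), a difference of -0.85 ± 0.25 SE or 0.553-fold. This was the largest difference of the 10 genes, and Npas4 also spanned the widest range over the arrays, 2.28. In the 8 arrays left without control replicates 2 and 3 the difference was -0.51 ± 0.20 SE.

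Arc, on chromosome 15 (74669081 to 74672570), encodes a cytoskeleton-associated protein whose RNA travels into dendrites and which promotes the endocytosis of AMPA receptors. The controls read 9.72, 10.47, 11.13, 10.05 and 10.21, and the Dp1Rhr arrays 9.49, 9.76, 9.55, 9.31 and 9.64. Of the Dp1Rhr arrays, 4 lay below every control, and replicate 2 lay just above the lowest control. The Dp1Rhr arrays were close together, with an SD of 0.17 against 0.53 in control with replicates 2 and 3 included. The difference was -0.77 ± 0.21 SE (0.588-fold), and -0.44 ± 0.12 SE without control replicates 2 and 3.

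The EGR genes encode zinc finger transcription factors that share a GC-rich binding site, and they did not move by the same amount. Egr1, the best known of them in memory consolidation, lies on chromosome 18 (34861207 to 34864956). It was at 10.16, 10.72, 10.92, 10.16 and 10.36 in control and at 9.99, 10.09, 10.10, 9.95 and 10.02 in Dp1Rhr. All 5 Dp1Rhr arrays lay below all 5 controls, the lowest of which were replicates 1 and 4. The difference was -0.44 ± 0.13 SE (0.740-fold), and the groups still did not overlap without control replicates 2 and 3, at -0.20 ± 0.05 SE.

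Egr2, on chromosome 10 (67534469 to 67542188), which is also known for its part in myelination by Schwann cells, was the gene most set apart by single arrays. It was at 6.86, 7.60, 8.53, 6.75 and 6.97 in control and at 6.67, 6.74, 6.80, 6.67 and 6.64 in Dp1Rhr. Control replicate 3 stood 1.67 above the median of control replicates 1, 4 and 5, the widest such gap of the 10 genes. Those 3 controls, from 6.75 to 6.97, overlapped the Dp1Rhr arrays, near the 40th percentile of mean signal over all genes at 6.82. The difference of -0.64 ± 0.27 SE (0.642-fold) was -0.34 ± 0.14 SE without control replicate 3 alone and -0.16 ± 0.05 SE without both.

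Egr3, on chromosome 14 (70077317 to 70082613), and Egr4, on chromosome 6 (85511121 to 85513589), showed the smaller differences of the family. For Egr3 the control values were 9.63, 9.91, 9.86, 9.74 and 9.81 and the Dp1Rhr values 9.69, 9.75, 9.70, 9.76 and 9.72, so the Dp1Rhr arrays lay inside the range of the controls. Its difference was -0.06 ± 0.05 SE, and with 8 arrays it was at 0.999-fold, with an SE of 0.04 on the log2 scale. Egr4 was at 8.06, 8.43, 8.78, 8.22 and 8.23 in control and at 8.10, 8.05, 8.06, 8.22 and 7.99 in Dp1Rhr. The groups overlapped, with Dp1Rhr replicate 4 level with control replicate 4 and control replicate 1 among the Dp1Rhr arrays. Egr4 differed by -0.26 ± 0.11 SE (0.836-fold), and by -0.09 ± 0.06 SE without control replicates 2 and 3, a value larger than its SE but smaller than the spread of the controls.

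The NR4A genes encode orphan nuclear receptors that act without a known endogenous ligand and are induced through cAMP and calcium signalling. Nr4a1, on chromosome 15 (101253902 to 101274795), was at 9.67, 10.53, 10.86, 9.90 and 10.10 in control and at 9.55, 9.69, 9.46, 9.46 and 9.64 in Dp1Rhr. Only Dp1Rhr replicate 2 reached the lowest control, replicate 1. The difference was -0.65 ± 0.18 SE (0.637-fold), and -0.33 ± 0.09 SE without control replicates 2 and 3.

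Nr4a2, on chromosome 2 (57106830 to 57124003), known for its need in midbrain dopamine neurons, was at 10.52, 11.07, 11.13, 10.78 and 10.84 in control and at 10.52, 10.51, 10.49, 10.75 and 10.64 in Dp1Rhr. Control replicate 1 sat among the Dp1Rhr arrays. The difference was -0.29 ± 0.10 SE (0.820-fold), and -0.13 ± 0.08 SE in the 8 arrays. Nr4a3, on chromosome 4 (48045078 to 48086447), was at 10.21, 10.47, 10.57, 10.17 and 10.17 in control and at 10.01, 10.07, 9.90, 10.14 and 10.07 in Dp1Rhr. As for Egr1, no Dp1Rhr array reached a control, with or without control replicates 2 and 3. The difference was -0.28 ± 0.08 SE (0.823-fold), and -0.15 ± 0.05 SE in the 8 arrays.

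Ier2, on chromosome 8 (84661331 to 84662852), which encodes a nuclear protein induced by growth factors, was the dimmest probe set of the 10 and the only 1 below the 40th percentile of mean signal. Its arrays ranged from 5.86 to 6.02 in control and from 5.80 to 6.07 in Dp1Rhr. The Dp1Rhr arrays spanned the whole range of the controls, and the difference was -0.03 ± 0.05 SE, and -0.05 ± 0.06 SE without control replicates 2 and 3.

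Over the 10 genes the median difference was -0.36, and -0.15 without control replicates 2 and 3, where the median over all 19938 genes was at 0.00. All 10 were lower in Dp1Rhr on average with both sets of arrays, as were 50.1% of all genes with the full set, although Egr3 was at 0.03 once the choroid plexus level of each array was in the model. The order of the differences, from Npas4 and Arc through Nr4a1, Egr2 and Egr1 to Nr4a2, Nr4a3, Egr4, Egr3 and Ier2, had neighbours whose ranges of 1 SE overlapped, except at the step from Egr4 to Egr3. Without control replicates 2 and 3, 3 of the 10 genes kept a difference beyond 0.25 in size, Npas4, Arc and Nr4a1.

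**Figure D2:**
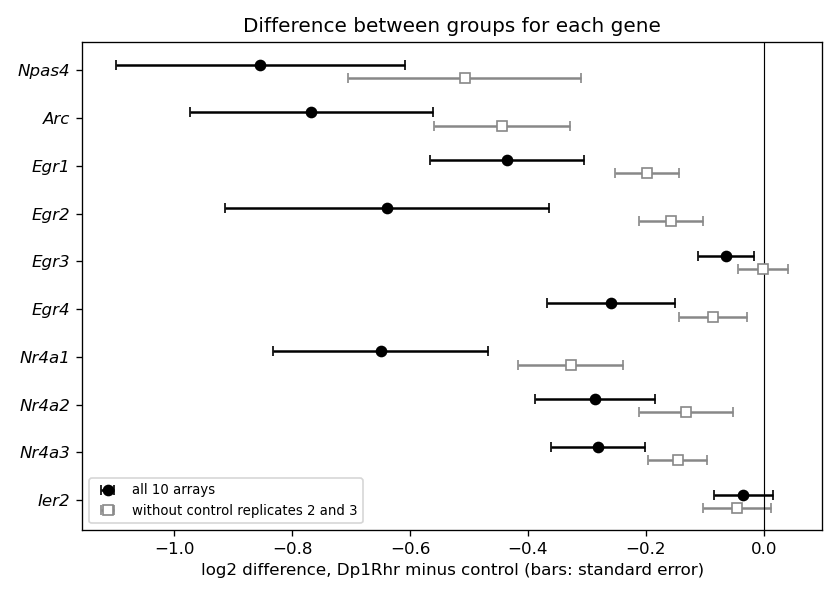
Difference in log2 expression (Dp1Rhr minus control, horizontal axis) of each of the 10 genes, with bars of 1 standard error from limma. Filled circles use all 10 arrays, and open squares leave out control replicates 2 and 3, which brings the median of the 10 genes from -0.36 to -0.15.

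Because the genes were chosen on this contrast, counts of calls among them carry no weight and are given only beside those over all genes. At a limma adjusted p under 0.05, 0 of the 10 passed, where 160 of all genes did (0.802%), 35 of them lower in Dp1Rhr (0.176%). At an unadjusted p under 0.05 it was 8 of the 10 and 15.0% of all genes. FCROS, the rank method of the study, which calls nearly fixed tails of the genes, took 8 of the 10 and 5.39% of all genes. All Dp1Rhr arrays lay below all controls in 2 of the 10 (Egr1 and Nr4a3) and in 1.70% of all genes, and without control replicates 2 and 3 in 2 of the 10 and in 3.60%.

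With all 10 arrays the groups differed in spread as well as in mean. The SD over the 5 arrays was larger in control than in Dp1Rhr for 9 of the 10 genes, all but Ier2, and for 56.4% of all genes. The ratio of the control SD to the Dp1Rhr SD had a median of 3.16 over the 10 genes and 1.09 over all genes. It ran from 0.676 in Ier2 to 11.4 in Egr2. Egr2 was at 6.80 or lower in every Dp1Rhr array, below the 40th percentile of mean signal at 6.82. Control replicates 2 and 3 were in these SDs, and no SD was taken without them. In control replicates 1, 4 and 5 alone Npas4 ran from 8.36 to 8.67 and Nr4a3 from 10.17 to 10.21. Their Dp1Rhr ranges were wider, 7.40 to 8.42 and 9.90 to 10.14, as were those of Egr4 and Ier2. For Arc, Egr1, Egr2, Egr3, Nr4a1 and Nr4a2 the range of those controls remained the wider. A range tends to widen with the number of arrays, so ranges of 3 controls and 5 Dp1Rhr arrays are not like measures. The mean over the 10 genes was 8.91, 9.42, 9.75, 9.04 and 9.14 in control replicates 1 to 5 and 8.79, 8.88, 8.84, 8.75 and 8.85 in the Dp1Rhr arrays. The Dp1Rhr means thus lay close together, and all below the lowest control, replicate 1. Control replicate 3 was the highest array for 8 genes and control replicate 2 for Egr3, while control replicate 1 was the lowest control for 7.

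Tissue markers moved with these arrays. All 17 measured choroid plexus markers were higher on average in Dp1Rhr, 0 of them past the limma threshold, with a median of 0.64, and of 0.29 without control replicates 2 and 3. Their mean was 6.98 and 7.20 in control replicates 2 and 3, from 7.99 to 8.57 in the other controls and from 8.20 to 8.88 in Dp1Rhr. So the 2 arrays with the least choroid plexus signal were the 2 with the most Npas4, Arc, EGR and NR4A signal. On the choroid plexus scale the other controls overlapped the Dp1Rhr arrays. With the choroid plexus score in the model, the difference was -0.52 ± 0.28 SE for Npas4, -0.42 ± 0.21 SE for Arc and -0.28 ± 0.16 SE for Nr4a1. It was -0.15 ± 0.10 SE for Egr1, -0.14 ± 0.08 SE for Nr4a3 and -0.09 ± 0.25 SE for Egr2. The rest were between -0.06 and 0.03, with SEs from 0.04 to 0.09.

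Prox1 was at 10.1 in both control replicates 2 and 3 and from 10.3 to 10.5 in the other 8 arrays, so the dentate marker was also lowest where the early genes were highest. Over 7 dentate granule cell markers the array means ran from 9.31 (control replicate 2) to 9.51 in control and from 9.42 to 9.50 in Dp1Rhr, and control replicate 3 was not low among them. In this list 1 gene rose, Tdo2 (0.25 ± 0.04 SE, limma adjusted p = 0.0210, and 0.0558 to 0.0747 without control replicate 5 or Dp1Rhr replicate 1, 2 or 4), and 0 fell. Without control replicates 2 and 3 the call of Tdo2 was lost, at 0.28 and an adjusted p of 0.0509. The oligodendrocyte markers had a median of 0.15 over 5 genes, and of 0.11 without control replicates 2 and 3. Their means were 11.66 and 11.60 in those 2 arrays. Control replicate 1 was level with control replicate 2 at 11.66, so those 2 arrays did not stand apart here. Medians of the CA1, neocortex and interneuron markers were -0.03, -0.07 and 0.08, with 0 genes called.

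Markers of other neighbouring regions differed more between the groups, also with 0 genes called. The habenula markers had a median of 0.56, and of 0.62 without control replicates 2 and 3, and their means ran from 6.92 to 7.54 in control and from 6.96 to 8.41 in Dp1Rhr. The thalamus markers had a median of -0.24, with means from 9.06 to 9.60 in control and from 8.78 to 9.03 in Dp1Rhr, which did not overlap. Nor did the means of the striatum markers, from 7.98 to 8.11 in control and from 8.20 to 8.32 in Dp1Rhr. Of the blood markers only Alas2, which starts haem production in red cell precursors, was measured, and it rose (0.67 ± 0.11 SE, limma adjusted p = 0.0304), from 7.29 to 7.73 in control to 7.80 to 8.38 in Dp1Rhr. The call of Alas2 was lost without control replicates 2 and 3 (adjusted p = 0.0922), and without control replicate 2 or 5 or Dp1Rhr replicate 1, 2 or 4 alone (adjusted p from 0.0727 to 0.0952). The part of tissue makeup in the differences of the 10 genes was not tested.

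**Figure D3:**
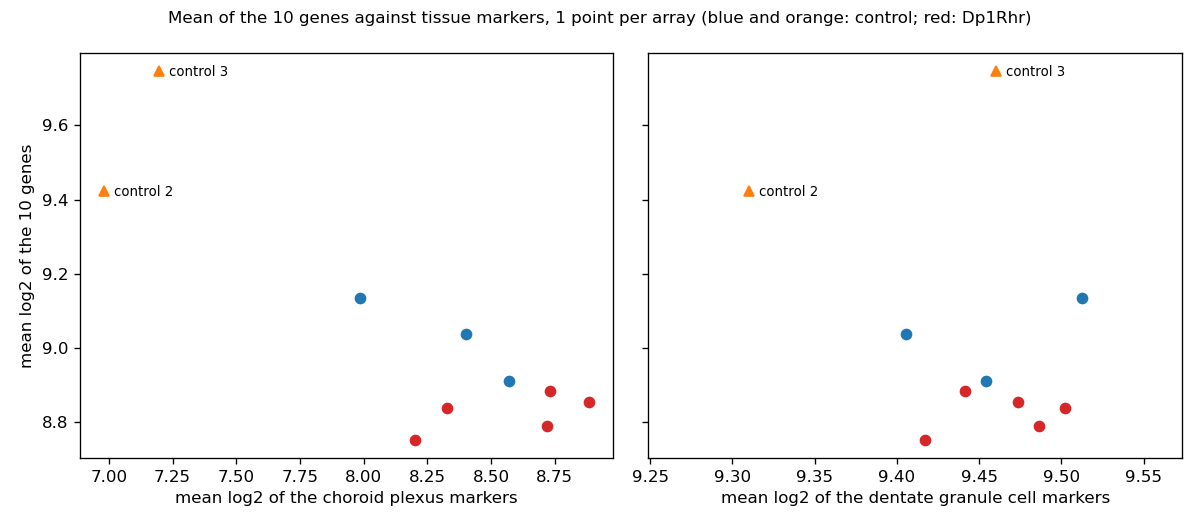
Mean log2 expression of the 10 genes (vertical axis) against the mean of the choroid plexus markers (left) and of the dentate granule cell markers (right), 1 point per array, with control in blue and orange and Dp1Rhr in red. Control replicates 2 and 3 (orange triangles) have choroid plexus means of 6.98 and 7.20 and gene means of 9.42 and 9.75, apart from the other 8 arrays.

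Correlations were taken on the deviation of each array from the mean of its group, so that the difference between the groups did not enter. Over the 10 arrays, the 36 pairs that leave out Ier2 had a median Pearson r of 0.83 (0.46 to 0.96), all above 0, and a median Spearman rho of 0.75. The pairs of Ier2 with the other 9 genes had a median r of 0.06. The tightest pairs were Arc with Nr4a1 (r of 0.96, rho of 0.96), Egr1 with Nr4a1 (r of 0.96, rho of 0.93) and Egr1 with Egr2 (r of 0.95). Without control replicates 2 and 3 the median r of the 36 pairs was 0.24 (-0.71 to 0.92), with 26 above 0, so most of the shared variation lay in those 2 arrays.

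Some pairs kept a high value in the other 8 arrays. Arc and Nr4a1 were at r of 0.92 and rho of 0.98, Egr3 and Nr4a2 at r of 0.84 against 0.92 with all arrays, and Egr1 and Egr2 at r of 0.83. In contrast, Npas4 and Nr4a3 went from 0.49 with 10 arrays to -0.71 with 8. Nr4a3 had the lowest median r with the other genes in the 8 arrays, -0.16, and Egr1 the highest, 0.60. All pairs share the same arrays, and 8 values give a wide range for any r.

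**Figure D4:**
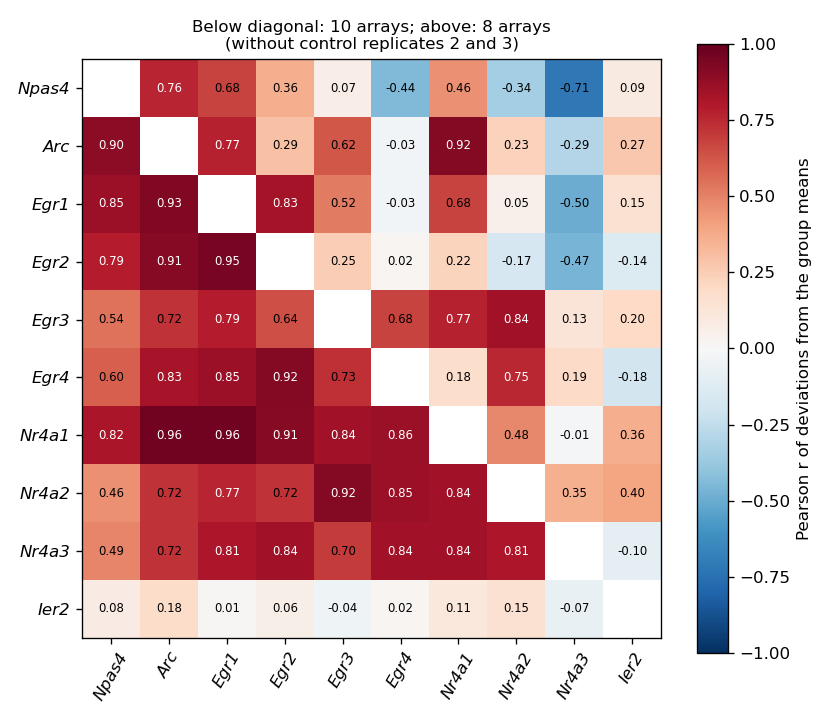
Pearson r between each pair of the 10 genes, on deviations from the group means, with 10 arrays below the diagonal and 8 arrays (without control replicates 2 and 3) above it, coloured from -1 (blue) to 1 (red). Below the diagonal only the row of Ier2 is pale, while above it the values run from -0.71 to 0.92.

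Among all other genes, the pattern over the 10 arrays most like the mean of the 10 genes was that of Fos, the founding immediate early transcription factor, with an r of 0.98. Fos was at 6.68, 7.61, 8.0, 6.93 and 6.94 in control and at 6.64, 6.51, 6.46, 6.55 and 6.59 in Dp1Rhr, so no Dp1Rhr array reached a control. Its relative Fosb had an r of 0.95 and was at 7.93, 8.60, 9.10, 8.39 and 8.36 in control and 8.07, 8.08, 7.85, 8.18 and 8.11 in Dp1Rhr, which overlapped at control replicate 1. The other 8 genes most like the mean, with r from 0.94 to 0.97, were Phlpp2, a phosphatase of AKT, Spata2l, Rc3h1, which destabilises messenger RNA, Nup62 of the nuclear pore, Zfp609, Pcf11 of transcript cleavage, Mfhas1 and the clock factor Arntl. On deviations from the group means r was 0.97 for Fos and 0.93 for Fosb, and in the 8 arrays 0.72 and 0.73, with the other 8 genes between 0.26 for Pcf11 and 0.74 for Rc3h1.

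The 5 genes that ran most against the 10 were H2-Ab1, Kdm4d, Pex2, 2300009A05Rik and Pbxip1, with r from -0.97 to -0.94. H2-Ab1, a chain of the class II antigen-presenting complex, was at 6.79, 6.24, 6.09, 6.51 and 6.47 in control and between 6.62 and 6.74 in Dp1Rhr. Its 2 lowest arrays were again control replicates 2 and 3. H2-Ab1 and Kdm4d (6.19 to 6.43) were below the 40th percentile of mean signal, 6.82, in all 10 arrays. In the 8 arrays r on deviations was -0.79 for H2-Ab1, -0.90 for Pex2, a peroxisome biogenesis factor, and -0.38 for Kdm4d, a histone demethylase.

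The same comparison was made for other genes of the pathway, from lists set by function with earlier results of these data known. The list counts beside the shares over all genes are therefore a description, with no test of the lists. Of 33 other immediate early genes, 2 fell in Dp1Rhr and 0 rose, where 0.176% of all genes fell and 0.802% changed in either direction. With all 10 arrays a difference below 0 was seen in 30 of them, against 50.1% of all genes, and the median was -0.12 where that over all genes was 0.00. Junb, a partner of Fos in the AP-1 dimer, fell by 0.32 on the log2 scale (SE 0.05, limma adjusted p = 0.0269), from 7.88 ± 0.09 (SD, n = 5) to 7.56 ± 0.08 (SD, n = 5), and all Dp1Rhr arrays lay below the controls. Dusp1, a phosphatase that switches off MAP kinases, fell by 0.65 (SE 0.12, adjusted p = 0.0434), from 9.79 ± 0.28 to 9.14 ± 0.17, also with no overlap. Fos at -0.68 ± 0.21 SE (adjusted p = 0.138), Fosb at -0.42 ± 0.17 SE (adjusted p = 0.253), Fosl2 at -0.23 (adjusted p = 0.111) and Fosl1 at -0.01 did not pass. The list mean was 8.43 and 8.59 in control replicates 2 and 3, from 8.26 to 8.35 in the other controls and from 8.22 to 8.25 in Dp1Rhr. Without those 2 controls the median was -0.06 and none of the 33 passed, with Junb at -0.27 and Dusp1 at -0.45. Some of the 30 were then above 0, among them Jun at 0.01 and Sik1 at 0.15, while Fos was at -0.30. With single arrays left out, limma lost the call of Junb in 6 of 10 fits (control replicate 2, 3 or 5 or Dp1Rhr replicate 1, 2 or 4, adjusted p from 0.0501 to 0.0909) and that of Dusp1 in the same 6 and without Dp1Rhr replicate 3 (adjusted p from 0.0523 to 0.131).

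Of the proteins that work with these factors, 0 of 7 passed, and the median was -0.08. Nab1 and Nab2, corepressors of the EGR factors, had -0.12 and -0.20, and Arnt and Arnt2, dimer partners of Npas4, had -0.09 and -0.08. The 6 measured paralogues of Npas4 and Ier2 had a median of -0.03, with 0 past the threshold. Npas1 was at -0.04, Npas3 at 0.02, Sim1 at 0.02 and Sim2 at -0.02. Sim1 and Sim2 were dim, with control means of 5.55 and 5.89 below the 40th percentile of 6.82, so their differences say little about their RNA. Sim2 lies in the duplicated stretch, and at this signal no effect of its extra copy could be judged.

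Upstream, 30 genes of calcium, cAMP and ERK signalling to CREB, SRF and MEF2 had 1 member that fell and 0 that rose, with a median of -0.06 both with and without control replicates 2 and 3 and 25 members below 0, again beside 0.176% and 50.1% of all genes. The member was Adcy1, which makes cAMP when calcium rises and which fell by 0.16 (log2, SE 0.03, limma adjusted p = 0.0486). Its call was lost without those 2 controls, where it was at -0.17, and in 9 of the 10 fits without 1 array, all but that without Dp1Rhr replicate 5 (adjusted p from 0.0537 to 0.148). Creb1, Crem and Atf1, the CREB family itself, had -0.06, -0.05 and -0.05, and the coactivator Crebbp had -0.16 (adjusted p = 0.0617). The list means ran from 10.46 to 10.52 in Dp1Rhr and from 10.54 to 10.59 in control.

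Downstream, none of 12 late activity-response genes passed and their median was 0.00. Bdnf, the growth factor induced late after activity, had -0.04 ± 0.04 SE, Nptx2, which clusters AMPA receptors, 0.18 ± 0.07 SE (limma adjusted p = 0.217), Nptx1 -0.02 and Scg2 0.00. Among 11 genes of AMPA receptors and of the endocytic partners of Arc 0 passed and the median was also 0.00, with Dnm2, a dynamin, at 0.09, Sh3gl1 at -0.02, Sh3gl3 at 0.00 and Ap2a1 at -0.01. The lists that track time of day and stress had medians of -0.07 (14 circadian clock genes) and -0.10 (11 glucocorticoid response genes), with 0 past the threshold. Of the clock list, Arntl had -0.21, Clock -0.07, Per1 -0.23 and Per2 -0.12, and of the glucocorticoid list Fkbp5 had 0.12, Sgk1 -0.12, Tsc22d3 -0.10 and Zbtb16 -0.11. The list mean of the glucocorticoid response genes was 8.85, 8.68, 9.08, 9.47 and 8.81 in control replicates 1 to 5 and from 8.81 to 8.99 in Dp1Rhr. Lcn2, with an SD of 1.69 over the controls, weighs on this mean. Whether stress or handling differed between the mice was not tested.

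**Figure D5:**
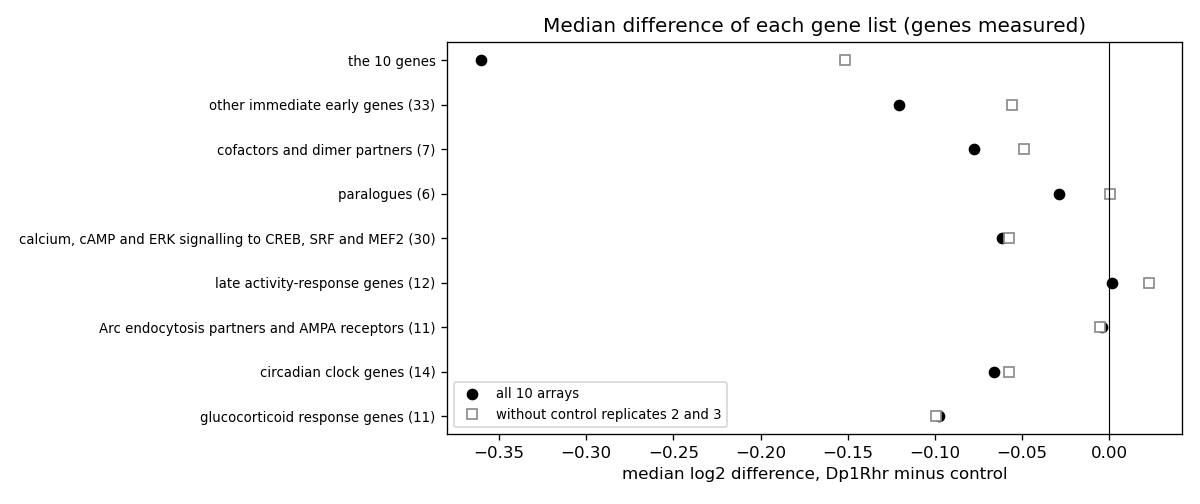
Median difference in log2 expression (Dp1Rhr minus control, horizontal axis) of the 10 genes and of each gene list, with the number of genes measured in brackets. Filled circles use all 10 arrays and open squares leave out control replicates 2 and 3: the other immediate early genes go from -0.12 to -0.06, the signalling genes stay at -0.06 and the late genes lie near 0.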

How the data were processed

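Total RNA of both hippocampi of each mouse was hybridised to Affymetrix Mouse Gene 1.0 ST arrays. The values deposited by the authors are log2 expression after RMA (background correction, quantile normalization and summary per probe set). The sources used here do not give the set of arrays normalized together. Quantile normalization hides a change common to all genes, and the number of arrays limits the precision. limma and the build mm10 are also named in the submitters' processing notes.

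Of 35556 probe sets, the 21789 annotated to exactly 1 symbol were used (1621 had several and 12146 were not listed), taking the brightest by mean of each gene, which gave 19938 genes. Groups were compared with limma 3.58.1 (lmFit, eBayes) in R 4.3.3, two-sided, with Benjamini-Hochberg adjustment over all genes at 0.05. p-values measure the spread between these mice. limma was tested on simulated data. The study used FCROS, run here with a trim of 0.25 and limits of 0.025 and 0.975 as an alternative. Others were leaving out arrays, a replicate block, normalization and centring, probe set choice, filters, weights, and the choroid plexus score as a covariate. FCROS without control replicates 2 and 3 was added after the data were seen.

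The 10 genes and all lists were chosen with earlier results of these data known. Named genes were the 10, from each pathway list the genes past the threshold and the first 4 measured in list order, the 10 genes most like and 5 most unlike the mean of the 10 (each z-scored), and Ttr and Prox1. Dyrk1a, Tdo2, Alas2, Jun, Sik1 and Lcn2 were named besides these, after their values were seen. The planned comparison of protein sequences was not made. Promoter windows came from RefSeq (GRCm38.p6). Genes on the arrays were placed through Entrez identifiers (21698 probe sets matched) on GRCm38.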

Additional observations from a re-analysis of the deposited data

Results flagged for a closer look

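In 66 groups of 5 arrays (each of the 10 genes, their mean and each list mean, in control and in Dp1Rhr) the highest and lowest arrays were compared with their neighbours, and 4 groups had 1 array far from the others, where chance gives about 1 in 20. None concerned the 10 genes. The mean of the habenula markers was 7.54 in control replicate 3, with the other controls between 6.92 and 7.02. Control replicate 1 had a thalamus marker mean of 9.60, where the next control was at 9.21, and an endothelial marker mean of 9.07, where the next was at 8.93. Dp1Rhr replicate 3 had an endothelial marker mean of 8.97, below the 9.07 to 9.10 of the other Dp1Rhr arrays. Control replicate 3 was also the highest array for 8 of the 10 genes, and control replicate 1 the lowest control for 7.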

How the results depend on the processing

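The median difference of the 10 genes was -0.36, ran from -0.44 to -0.27 when single arrays were left out, and was -0.11 with the choroid plexus score as a covariate. Of 189 values of single genes under the alternatives, 183 moved by less than 1 SD and 6 by more, all with that covariate: Egr1 (-0.15), Egr2 (-0.09), Egr3 (0.03), Egr4 (-0.02), Nr4a1 (-0.28) and Nr4a2 (-0.06). Only the value of Egr3 was above 0. The count of 183 says little about stability. The replicate block, the mean of the probe sets, the filter of dim genes and an eBayes variant cannot move an estimate. The SD was pooled over both groups and includes control replicates 2 and 3. Egr2, at -0.64 with all arrays and -0.16 without those 2, thus counted as moved by less than 1 SD.

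By limma, 0 of the 10 passed an adjusted p of 0.05 under each alternative run (8 at an unadjusted p under 0.05 with all arrays), while FCROS took 8, and 4 without control replicates 2 and 3. Over all genes 160 passed, from 5 to 284 with 1 array left out, 5 without control replicates 2 and 3 together, 280 with array weights, 6 with the choroid plexus score, 1075 by FCROS and 904 by FCROS without those 2 controls. With arrays centred on their medians, 107 genes were higher and 17 lower in place of 125 and 35. The replicate numbers did not pair the mice (r of same-numbered deviations from -0.34 to 0.12), and a fit with replicate number as a block called 4 genes. The calls of Junb, Dusp1, Adcy1 and Tdo2 were lost without control replicates 2 and 3, with the choroid plexus score and with the block (adjusted p from 0.0509 to 0.210). Alas2 kept its call only with the block (adjusted p = 0.0344), against 0.0922 and 0.125 in the other 2 fits. With 5 arrays a group, and 3 controls once those 2 are left out, small differences such as those of Egr3 and Ier2 could not be resolved.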
